A study of Homo sapiens with 6 samples.

Results

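The Notch receptors NOTCH1, NOTCH2 and NOTCH3, their ligands JAG1, JAG2 and DLL1, and the HES and HEY repressors HES1, HEY1, HEY2 and HEYL were followed in RH36 cells that received pre-miR-27a or a pre-control. Members were all probes that the array files assign to one of these 10 gene names, without regard to their values. They came to 13 probes of the 41000 on the array. Of the 13, 12 passed the filter on missing spots, and they represented 9 of the 10 genes.

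RH36 is an established line of embryonal rhabdomyosarcoma, a tumour of the skeletal muscle lineage, and does not carry the PAX3/FOXO1 translocation. Both groups were grown in the same serum-containing medium and transfected transiently, so the control cells also received an RNA precursor and the transfection reagent. The pre-miR-27a group is a precursor of miR-27a at 10 nM per the labels, and the pre-control group a negative control precursor. Each group had 3 arrays that the labels call biological replicates. The study's methods give a higher concentration than the labels. The labels place the test for miR-27a at 24 hours and name 48 hours for the pre-miR-27a arrays, and which dose and time hold for the arrays was not settled here. For the pre-control arrays the labels name no 48 hours. Whether both groups were collected at the same time is therefore not known. How the cultures were kept apart is not described, so the p-values measure the spread between these arrays. A single cell line was used, and in bulk RNA fewer cells with a transcript and less transcript per cell cannot be told apart.

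Notch receptors are membrane proteins that are cleaved when a Jagged or Delta-like ligand on a neighbouring cell binds and is pulled into that cell. The freed intracellular domain enters the nucleus, joins RBPJ and Mastermind coactivators on DNA and turns on targets, of which the HES and HEY genes, basic helix-loop-helix repressors, are the best known. In skeletal muscle, Notch signalling keeps satellite cells and myoblasts from differentiating, and HES and HEY proteins act against the myogenic factors.

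The transfected precursor is shown first, because its mature form defines the treatment. Mature sequences are those of RefSeq on GRCh38.p14, 5′ to 3′, and the capitals mark the seed, bases 2 to 8, which pairs with target mRNAs.
hsa-miR-27a-3p (chr19:13836447-13836467, minus strand): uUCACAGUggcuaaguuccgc

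The promoters of the HES and HEY genes are shown because RBPJ reaches its targets through the motif TGGGAA. That motif was searched on both strands of the 300 bases from 250 before to 50 after the RefSeq start. The search covered 8 of the 10 members. The promoters of DLL1 and HEY1 were not used, so whether they hold a match was not looked up. TGGGAA stood in 24% of 35116 promoters of that length, and the longer form CGTGGGAA, which contains it, in 0.826%. No match was found in these windows of NOTCH1, NOTCH2, NOTCH3, JAG1 or JAG2. HES1, HEY2 and HEYL had 2 matches each. The longer form was among them at both places in HEY2 and at 1 place in HEYL. A match describes these letters and not a bound site. The lines below are GRCh38.p14 on the strand of the gene, and the capitals mark TGGGAA or its reverse complement TTCCCA.
HES1, 84 bases before the start (chr3:194136052-194136081, plus strand): tgaaagttactgTGGGAAagaaagtttggg
HES1, 70 bases before the start (chr3:194136066-194136095, plus strand): ggaaagaaagttTGGGAAgtttcacacgag
HEY2, 213 bases before the start (chr6:125749407-125749436, plus strand): tccgcggccgcgTTCCCAcgcctcggctgg
HEY2, 3 bases before the start (chr6:125749617-125749646, plus strand): agagttgcggcgTGGGAAagagccgctagg
HEYL, 178 bases before the start (chr1:39639804-39639833, minus strand): ccgcctagggccTTCCCAcggctcggcggc
HEYL, 99 bases before the start (chr1:39639725-39639754, minus strand): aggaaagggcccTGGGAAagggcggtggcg

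Values are normalized log2 signals, on which 1 unit is a factor of 2, and every difference is pre-miR-27a minus pre-control. Signals were well above background for 69.9% to 73.9% of spots on the pre-control arrays and for 74.1% to 78.0% on the pre-miR-27a arrays, and 0 spots were saturated. Spots flagged as not found, which became missing values, numbered 1559 to 1750 on the pre-control arrays. On the pre-miR-27a arrays they were more, at 3487 to 4153. Slide 1 carried the pre-control arrays and slide 2 the pre-miR-27a arrays, so every difference given here is also one between slides, and the causes cannot be told apart. Slide 1 had a local background of 74.5 to 76 intensity units (median over spots of an array), and slide 2 of 52.5 to 53. On every one of the 6 arrays the muscle markers DES, MYOD1, MYOG, CHRNA1 and CHRNG exceeded background clearly. Of 7 markers of other cell types, EPCAM, CDH1, PTPRC and PECAM1 did so on no array, CDH5 on 3, and KRT8 and CD3E on all 6. In the pre-miR-27a arrays KRT8 was lower at its brightest probe, at −0.70 (adjusted p = 0.018 by limma). A second KRT8 probe, well above background on no array, stood at 0.75 (adjusted p = 0.268 by limma). The CD3E probes disagreed, the brightest at −0.44 (adjusted p = 0.035 by limma) and the other, also clear of background on all 6 arrays, at −0.05 (0.874).

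All 10 genes were detected in RH36 cells. Each had at least 1 probe well above background on all 6 arrays. None of the 9 tested genes rose or fell at an adjusted p under 0.05 by limma, where 7.4% of all 27328 gene names passed (7.83% of the 36469 probes). At an unadjusted p under 0.05 the count was also 0 of 9, against 23.8% of gene names. SAM at a false discovery rate of 5% called 0 of 9, against 5% of all probes. The differences of the 9 genes ran from −0.31 to 0.22 with a median of 0.02, and their median size was 0.10, against 0.21 over all gene names. Of the 9, 5 were above and 4 below 0. The sign turned for HEY1 with 75th percentile scaling and for JAG2 with normexp background correction.

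**Figure D1:**
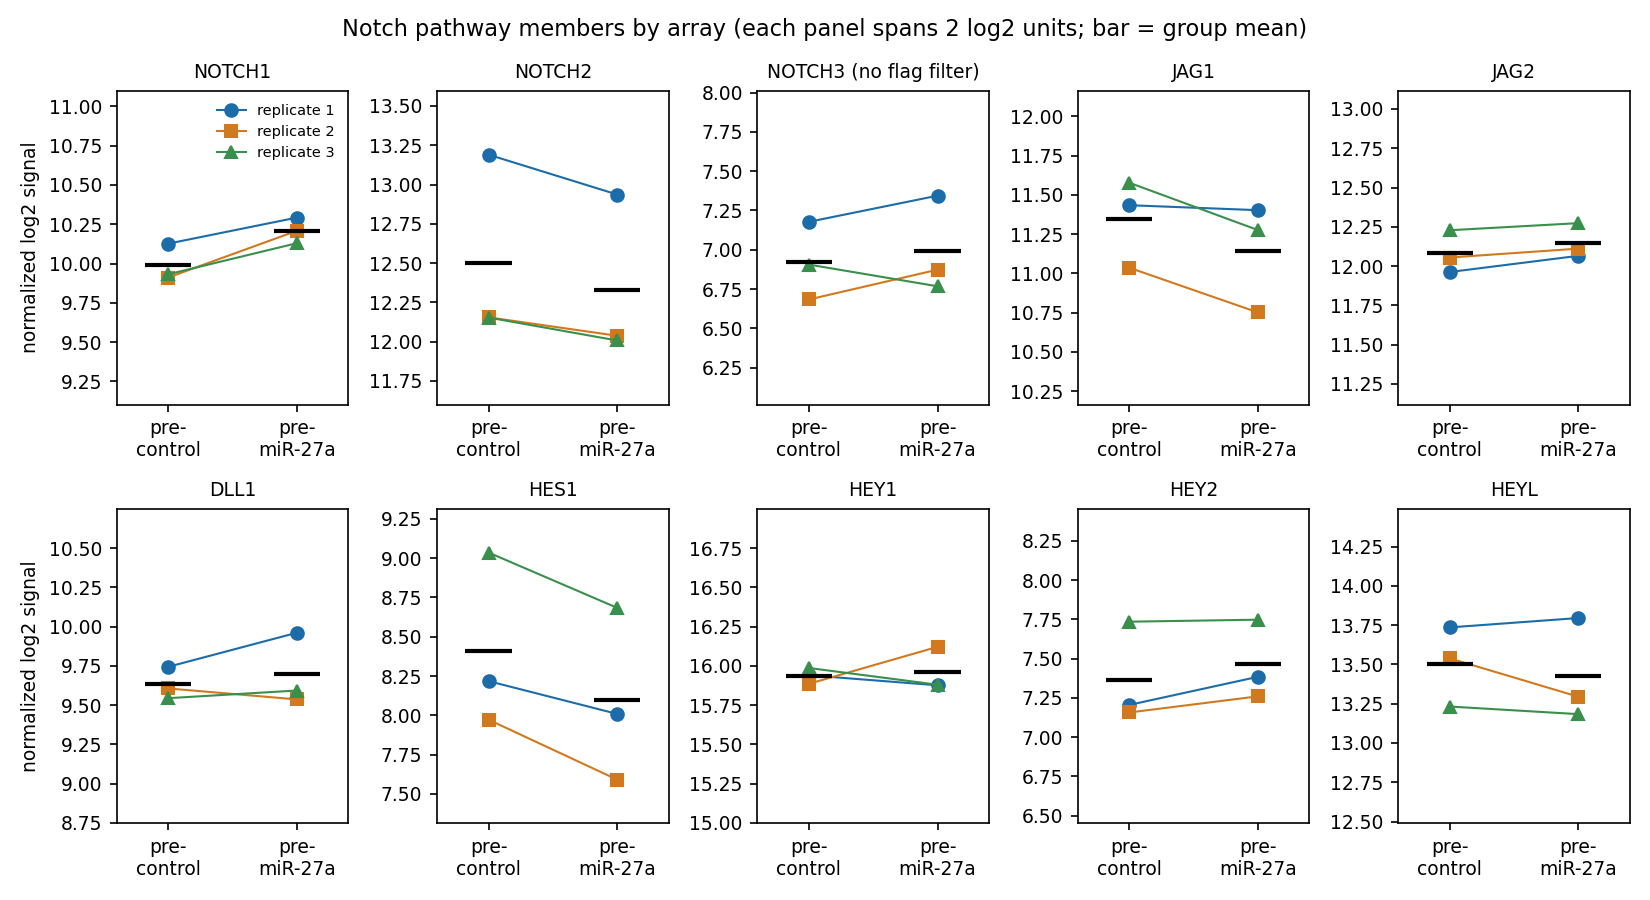
Normalized log2 signal (y axis, 2 log2 units in every panel) of each member's probe with the highest mean signal on the 3 pre-control and 3 pre-miR-27a arrays. Points are arrays, coloured by replicate number and joined where the number is the same, and bars are group means. NOTCH2 was highest in replicate 1 and HES1 in replicate 3 of both groups, and the groups overlapped for all members but NOTCH1. NOTCH3 is drawn without the filter on found spots.

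Among the receptors, NOTCH1 gave the only groups of arrays that did not overlap. Its probe (NM_017617, hg18 chr9:138509585-138509644, minus strand) is printed 10 times on each array, with an SD between spots of 0.0380 to 0.0914. The pre-control arrays read 10.13, 9.91 and 9.93 in replicates 1 to 3, and the pre-miR-27a arrays 10.29, 10.21 and 10.13. All pre-miR-27a arrays were above all pre-control arrays, but the highest pre-control and the lowest pre-miR-27a array were equal to 2 decimals. The difference was 0.22 (SE 0.10, 95% interval −0.02 to 0.46, adjusted p = 0.231 by limma). Of the 9 genes, 1 had groups that did not overlap, against 31.5% of all gene names.

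NOTCH2 is a second receptor, known from muscle satellite cells along with NOTCH1 and NOTCH3. Its probe (NM_024408, hg18 chr1:120256381-120256440, minus strand) read 13.19, 12.15 and 12.15 on the pre-control arrays and 12.94, 12.04 and 12.01 on the pre-miR-27a arrays. Replicate 1 stood well above the other arrays in each group, and the groups overlapped. The difference was −0.17 (SE 0.39, interval −1.14 to 0.80, adjusted p = 0.834 by limma), so a fall by a factor of 2 lay inside the interval.

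NOTCH3, a receptor also known from vascular smooth muscle, was left out of the test. Its probe (NM_000435, hg18 chr19:15132756-15132815, minus strand) was well above background on all 6 arrays, but 3 of its spots carried the flag for a spot that was not found. Without that filter it read 7.18, 6.68 and 6.91 on the pre-control and 7.34, 6.87 and 6.77 on the pre-miR-27a arrays. The groups overlapped, and replicate 1 was the highest in both. The difference was 0.07 (SE 0.20, interval −0.43 to 0.58, adjusted p = 0.868 by limma without the filter).

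The ligands JAG1, JAG2 and DLL1, which neighbouring cells present to the receptors, differed by 0.21 or less in size. JAG1 (NM_000214, hg18 chr20:10567061-10567120, minus strand) read 11.43, 11.04 and 11.58 on the pre-control arrays and 11.40, 10.75 and 11.28 on the pre-miR-27a arrays. It was lowest in replicate 2 of both groups, and the groups overlapped. Its difference was −0.21 (SE 0.23, interval −0.76 to 0.35, adjusted p = 0.633 by limma).

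JAG2 (NM_002226, hg18 chr14:104679719-104679778, minus strand), the other Jagged ligand, read 11.96, 12.05 and 12.23 on the pre-control and 12.07, 12.11 and 12.27 on the pre-miR-27a arrays. Its order over the replicates was the same in both groups. Its difference was 0.07 (SE 0.11, interval −0.20 to 0.33, adjusted p = 0.751 by limma) and turned to −0.0024 with normexp background correction. DLL1, a Delta-like ligand that activates the receptors (NM_005618, hg18 chr6:170433567-170433626, minus strand), read 9.74, 9.61 and 9.54, then 9.96, 9.54 and 9.59. Replicate 1 was its highest array in each group, and the groups overlapped. Its difference was 0.07 (SE 0.14, interval −0.28 to 0.41, adjusted p = 0.820 by limma).

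HES1, the classical Notch target, had the difference of largest size of the 9 genes by their brightest probes, and a wide spread. As a mean over probes, with the dim probe below, it was −0.19, smaller in size than HEY2 (0.29), NOTCH1 (0.22) and JAG1 (−0.21). Its brightest probe (NM_005524, hg18 chr3:195338870-195338929, plus strand) read 8.22, 7.97 and 9.04 on the pre-control arrays and 8.01, 7.59 and 8.68 on the pre-miR-27a arrays. Replicate 3 was the highest and replicate 2 the lowest of both groups, and the groups overlapped. The difference was −0.31 (SE 0.39, interval −1.27 to 0.64, adjusted p = 0.675 by limma). A second HES1 probe (hg18 chr3:195336738-195336797) read 6.66, 6.49 and 7.72, then 6.65, 6.48 and 7.42. It kept the order of the replicates, with a smaller difference of −0.11 (SE 0.41, adjusted p = 0.906 by limma). The remaining HES1 probe, which spans 188 bases (hg18 chr3:195336970-195337157), did not rise well above background on any array.

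HEY1, a repressor that acts with HES proteins downstream of Notch, gave the narrowest groups of the HES and HEY members. Its probe (NM_012258) read 15.94, 15.89 and 15.99 on the pre-control and 15.88, 16.12 and 15.88 on the pre-miR-27a arrays. All 6 arrays lay within a narrow band and the groups overlapped. The difference was 0.02 (SE 0.10, interval −0.22 to 0.26, adjusted p = 0.922 by limma). It became −0.18 with 75th percentile scaling, under which the median of all probes was −0.09 in place of −0.02.

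HEY2, known for its part in heart and vessel development (NM_012259, hg18 chr6:126123697-126123756, plus strand), read 7.21, 7.16 and 7.73 on the pre-control arrays and 7.38, 7.26 and 7.75 on the pre-miR-27a arrays. Like HES1 it was highest in replicate 3 of both groups. The difference was 0.10 (SE 0.21, interval −0.42 to 0.62, adjusted p = 0.820 by limma). Its second probe, across 187 bases (hg18 chr6:126114708-126114894), was well above background on 2 pre-control arrays and on 3 pre-miR-27a arrays. It read 4.60, 5.57 and 6.61, then 5.71, 6.15 and 6.37, a difference of 0.48 (SE 0.52, adjusted p = 0.627 by limma).

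HEYL, the HEY family member named for its likeness to HEY1 and HEY2 (NM_014571, hg18 chr1:39862428-39862487, minus strand), read 13.74, 13.54 and 13.23 on the pre-control arrays and 13.80, 13.29 and 13.18 on the pre-miR-27a arrays. Replicate 1 was the highest and replicate 3 the lowest in each group, and the groups overlapped. The difference was −0.08 (SE 0.21, interval −0.60 to 0.44, adjusted p = 0.865 by limma).

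The members also varied with the replicate number, which is the position on the slide as well. The highest array had the same number in both groups for 8 of the 10 genes (for 58.9% of all 31717 complete probes), and the lowest for 6 of 10. The share of all probes with the same lowest number was not counted, so whether the count for the lowest array is particular to these genes is not known. For NOTCH2 the mean of both groups was 13.06 in replicate 1 and 12.10 and 12.08 in replicates 2 and 3, a range of 0.98. For HES1 the means were 8.11, 7.78 and 8.86, a range of 1.08. Both ranges exceed the size of the difference between transfections for the same gene. A range over 3 means and a difference of 2 means are unlike measures, however. For NOTCH1 the range was 0.18 and the difference 0.22. How often the range is the larger over all gene names is not given here. A limma F test of the replicate number, chosen after these values were seen, gave an adjusted p of 0.0733 for NOTCH2 and 0.0759 for HES1. It called 0 of 9 members and 0 of 27328 gene names after adjustment over all probes (0%). At an unadjusted p under 0.05 it passed 5 of the 9, NOTCH2, JAG1, HES1, HEY2 and HEYL, against 26.8% of all gene names. DES, the muscle intermediate filament desmin, also peaked in replicate 3, at 15.60, 15.17 and 16.04 on the pre-control and 15.65, 15.10 and 16.02 on the pre-miR-27a arrays. Whether culture, slide position or labelling accompanied these differences was not tested.

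**Figure D2:**
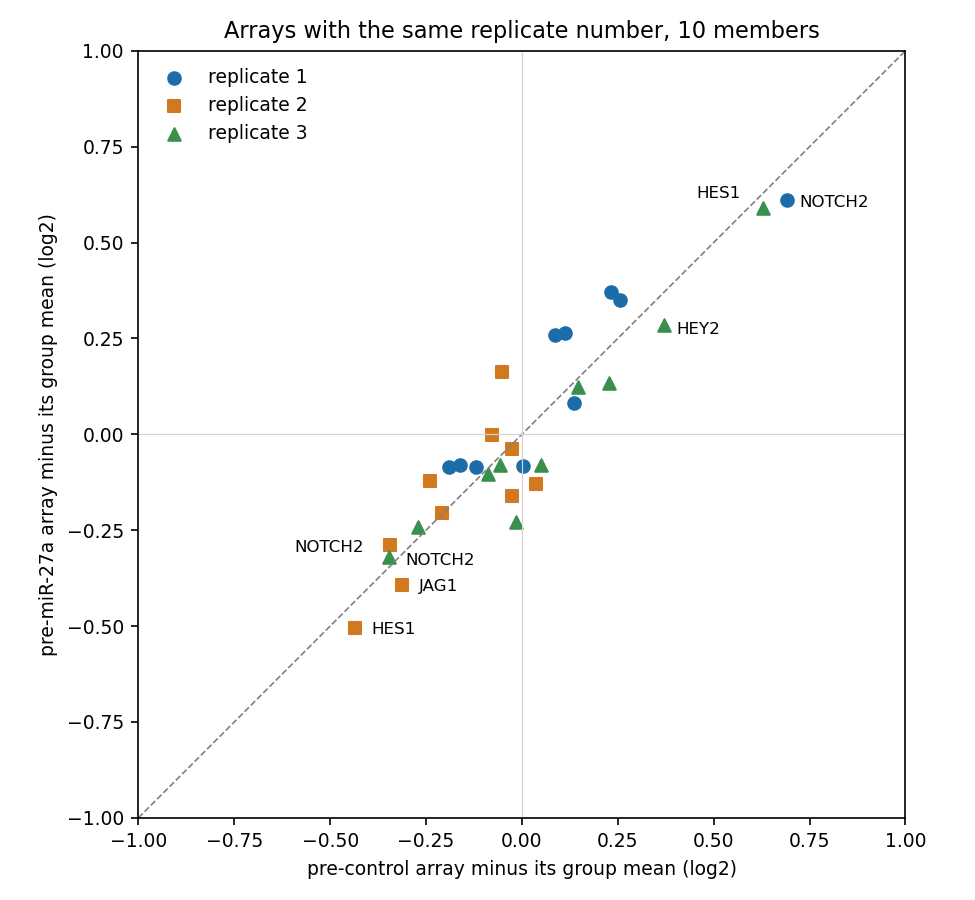
Each point is 1 member in 1 replicate number, with the pre-control array minus its group mean on the x axis and the pre-miR-27a array of the same number minus its group mean on the y axis, both in log2 units. The dashed line marks equal deviations. Of 30 points, 26 have the same sign on both axes, with NOTCH2 in replicate 1 and HES1 in replicate 3 at the upper right. The 3 deviations of a gene in a group sum to 0, so the points are not independent. Like signs were not counted over all probes. Over 31717 probes of the array same-numbered arrays also deviated together, with correlations of 0.40, 0.46 and 0.41.

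When the replicate number was fitted as a block, the median standard error of the members was 0.06 in place of 0.21. NOTCH2 was then lower in each pair, by −0.25, −0.12 and −0.15 (interval −0.35 to 0.00, adjusted p = 0.135 by limma). HES1 was also lower in each pair, at −0.21, −0.38 and −0.35 (interval −0.50 to −0.13, adjusted p = 0.0597 by limma). NOTCH1 was higher in each, at 0.17, 0.30 and 0.20 (interval 0.05 to 0.39, adjusted p = 0.0892 by limma). The blocked comparison called 0 of 9 members, against 14.1% of all gene names. At an unadjusted p under 0.05 it passed 2 of 9, NOTCH1 and HES1, against 36.1% of gene names. The second HES1 probe gave pairs of −0.01, −0.01 and −0.30 (adjusted p = 0.434 by limma with the block), so its first 2 pairs did not show the fall of the first probe. The direction was the same in all 3 pairs for 6 of 9 members, against 62.5% of gene names.

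**Figure D3:**
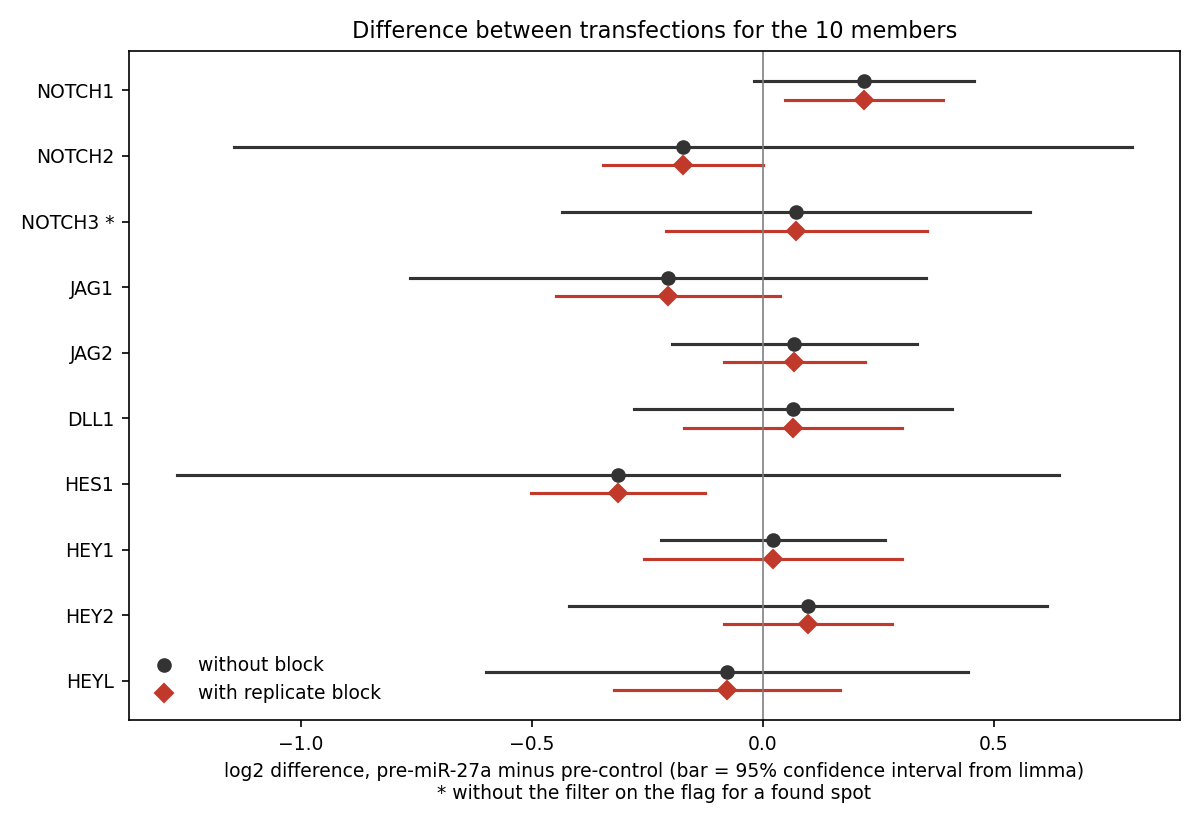
Log2 difference (x axis, pre-miR-27a minus pre-control) of each member with its 95% interval from limma, without (grey circles) and with (red diamonds) the replicate block. All intervals without the block cross 0, and with it those of NOTCH1 and HES1 do not. NOTCH3 is drawn without the filter on found spots.

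The rest of the pathway was read from a list of 59 genes by role, of which 53 had a tested probe. Of these, 3 passed above 0 (DLL4 among them without a signal above background) and 3 below 0 at an adjusted p under 0.05 by limma, 6 of 53, beside 3.07% of gene names called higher and 4.33% called lower. The median difference of the list was −0.12, with 21 genes above and 32 below 0, and that of all gene names was −0.04. Those called were a pair of ligands (DLL3, DLL4), a pair of ubiquitin ligases that act on ligands (MIB1, MIB2), the acetyltransferase EP300 and the target HES4.

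MIB1, the ligase that marks Notch ligands for the endocytosis that activates receptors, read 9.75, 9.76 and 9.60 on the pre-control arrays and 10.53, 10.55 and 10.51 on the pre-miR-27a arrays. The groups did not overlap, and the rise was 0.83 (SE 0.08, adjusted p = 0.018 by limma). A second MIB1 probe rose by 0.83 (adjusted p = 0.018 by limma), and another differed by 0.26 (adjusted p = 0.293). MIB2, a related ligase, read 9.69, 9.68 and 9.56, then 9.29, 9.11 and 9.22. It moved the other way, at −0.44 (SE 0.09, adjusted p = 0.042 by limma), and did not pass with 75th percentile scaling (adjusted p = 0.0628).

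DLL3, a divergent ligand that is known to inhibit Notch in the cell that makes it, read 10.55, 10.66 and 10.71 on the pre-control arrays and 10.04, 9.98 and 10.18 on the pre-miR-27a arrays. Every pre-miR-27a array was below every pre-control array, and the difference was −0.58 (SE 0.09, adjusted p = 0.027 by limma). A second DLL3 probe gave −0.59 (adjusted p = 0.026 by limma). DLL4, an activating ligand known from vessels, passed the test (adjusted p = 0.048 by limma), but all 6 arrays left it short of the well-above-background flag, so no size is given. Its call was lost with the replicate block (adjusted p = 0.0923), and its sign turned with normexp background correction. Pre-miR-27a replicate 3 was flagged as not found for DLL4 and was missing from its test. With the filter on found spots dropped, the adjusted p was 0.301 by limma.

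EP300, a coactivator that the Notch complex recruits, read 8.20, 8.07 and 8.01 on the pre-control arrays and 8.78, 8.97 and 8.64 on the pre-miR-27a arrays. The groups did not overlap, with a rise of 0.70 (SE 0.11, adjusted p = 0.028 by limma). The other EP300 probe, printed 10 times, rose by 1.28 (adjusted p = 0.027 by limma). HES4, a HES family repressor, read 11.75, 11.80 and 11.80, then 11.33, 11.23 and 11.29, lower on every pre-miR-27a array. Its difference was −0.50 (SE 0.07, adjusted p = 0.023 by limma).

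In the roles without a call, the genes with the difference of largest size among those well above background on all 6 arrays were NOTCH4, MFNG, PSENEN and NCOR1. NCOR1, a corepressor that RBPJ can carry, differed by 0.62 (SE 0.16, adjusted p = 0.082 by limma) without overlap between groups. It passed with the replicate block (adjusted p = 0.0382 by limma), and another pair of probes, well above background on all 6 arrays, differed by 0.44 and 0.59. The remaining probe was well above background on 1 array only. PSENEN, a subunit of the gamma-secretase that cleaves Notch, differed by −0.32 (SE 0.08, adjusted p = 0.065 by limma) and passed with normexp background correction (−0.36, adjusted p = 0.0258). The receptor NOTCH4 differed by −0.23 (SE 0.20, adjusted p = 0.533) and MFNG, a Fringe glycosyltransferase that tunes ligand choice, by −0.34 (SE 0.42, adjusted p = 0.678), both by limma. A second NOTCH4 probe, left out of the test for 2 spots not found, went the other way. Without that filter it read 2.59, 4.07 and 5.11 on the pre-control and 5.18, 5.78 and 5.39 on the pre-miR-27a arrays. It was well above background on 1 pre-control and 3 pre-miR-27a arrays. The replicate block also passed DLK2 (adjusted p = 0.0413 by limma), a non-classical ligand, at −0.40, so that 3 higher and 4 lower genes passed there.

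For 3 further list genes a dimmer probe passed where the brightest did not, and these are named because of that disagreement. The Fringe genes LFNG and RFNG had such a probe at −0.47 (adjusted p = 0.034) and −0.49 (adjusted p = 0.022), beside 0.07 and −0.24 at their brightest probes. CREBBP, an acetyltransferase related to EP300, had one at 0.79 (adjusted p = 0.048), beside 0.30 at its brightest probe (all by limma). Which transcripts these probes read was not looked up here.

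**Figure D4:**
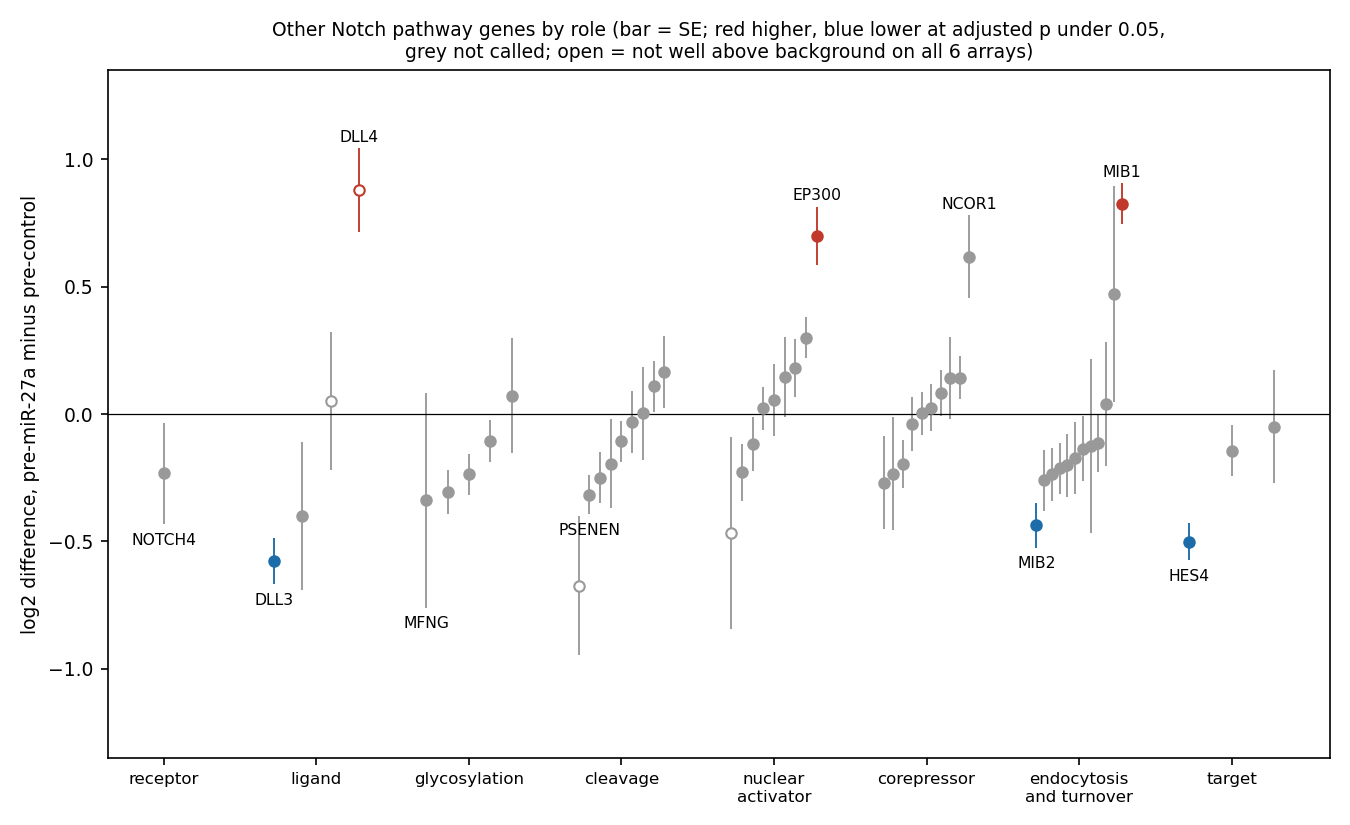
Log2 difference (y axis, pre-miR-27a minus pre-control) of the 53 tested genes of the pathway list by role (x axis), each by its probe with the highest mean signal, with bars of 1 SE. Red marks a rise and blue a fall at an adjusted p under 0.05, and open points were not well above background on all 6 arrays. The ligases MIB1 and MIB2 lie on opposite sides of 0.

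When an array was left out, 0 to 1195 probes of the whole array passed in place of 2856, and at most 1 of the 53 list genes, MIB1 without pre-control replicate 1. In that setting 1195 probes passed. The adjusted p by limma there was 0.0539 for DLL3, 0.0561 for EP300, 0.0549 for HES4, 0.103 for MIB2 and 0.0905 for DLL4. With any other array left out, 0 probes of the whole array passed. The differences with 1 array left out ran from 0.78 to 0.85 for MIB1 and from 0.61 to 0.78 for EP300. They ran from −0.64 to −0.53 for DLL3, from −0.52 to −0.47 for HES4 and from −0.48 to −0.39 for MIB2. Of the 5 muscle markers, 0 passed at the brightest probe, with MYOG at −0.95 (adjusted p = 0.140 by limma, 0.033 with the replicate block), CHRNG at −0.60 (0.145), MYOD1 at −0.45 (0.079, 0.036 with the block), CHRNA1 at −0.15 (0.456) and DES at −0.01 (0.985). A second CHRNA1 probe went the other way, at 0.95 (adjusted p = 0.022 by limma). Their part in the members' values was not tested.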

How the data were processed

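Total RNA of RH36 cells (3 pre-control and 3 pre-miR-27a arrays) was labelled with Cy3 and hybridised to 1-colour Agilent whole human genome arrays. The authors deposited, for each spot, the background-subtracted processed intensity from Feature Extraction 10.5.1.1, with the mean signal, local background and flags. They also deposited a table of normalized log2 values of the same arrays, used as an alternative. Of the columns holding sample values, 0 were unused.

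After removal of control spots, processed intensities were taken to log2 and quantile normalized. A spot that Feature Extraction flagged as not found became a missing value, repeated spots of a probe were averaged, and a probe was kept with at most 1 missing array (17%, the limit in the study's methods). Groups were compared in R 4.3.3 by limma 3.58.1, with Benjamini-Hochberg adjustment over 36469 probes and a threshold of 0.05. Files were read with the R package data.table, version 1.17.8. The script was tested on simulated data. Where several probes carried 1 gene name, the brightest on average stands for the gene. Named genes are all members, each called gene of the pathway list and, in a role with none, the gene with the difference of largest size among those well above background on all 6 arrays. DLK2, LFNG, RFNG and CREBBP were named after their values were seen. NRARP and HES3 had no probe under the names searched. Members and lists were chosen with earlier results of these data known. SAM was unpaired and used all 20 relabellings. Coordinates of probes were copied from the array files (hg18), and no exon annotation of that build was used here. The number of arrays limits the precision.

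Same-numbered arrays deviated together from their group means, with correlations of 0.40, 0.46 and 0.41 over 31717 probes. For different numbers they were −0.27 to −0.12, but deviations in a group sum to 0, so negative values follow from the positive ones. On this ground the numbers in the labels were taken to pair the arrays. The number is also the slide position, so paired cultures and shared positions cannot be told apart. The study's results describe its SAM as paired, and its methods do not name the pairs. The main limma fit and the SAM used here did not use the pairs. Alternatives were 75th percentile scaling, normexp correction (offset 50), other filters, the deposited log2 values, the replicate block, an intensity trend with robust estimation, SAM, the mean over a gene's probes and each array left out. The filter on outlier spots, the NOTCH3 settings and the test of the replicate number were added after the data were seen.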

Additional observations from a re-analysis of the deposited data

How the results depend on the processing

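No member was called under any alternative. Over the array, 2856 probes were called (1440 higher, 1416 lower), 5421 with the replicate block, 1825 by SAM (1212 higher, 613 lower) and 0 to 1195 when 1 array was left out (1195 without pre-control replicate 1). The 75th percentile scaling gave 1275 higher and 1981 lower. The pathway list gave 6 calls, 2 by SAM (EP300 and MIB1) and 0 to 1 with 1 array left out. MIB2 was lost with 75th percentile scaling (adjusted p = 0.0628) and the mean over probes (0.0519), and DLL4 had an adjusted p of 0.048 to 0.936 over the alternatives that kept every array. PSENEN passed with normexp correction (0.0258) and with the intensity trend (0.0455), and NCOR1 with the mean over probes (0.0289), by limma. Signs turned for JAG2 (−0.0024) and DLL4 (−0.017) with normexp correction, and for HEY1 with 75th percentile scaling (−0.18) and the deposited values (−0.018).

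Differences with 1 array left out ran from −0.48 to 0.18 for NOTCH2 (0.18 without pre-control replicate 1), from −0.61 to −0.00089 for HES1 (−0.00089 without pre-control replicate 3), from −0.36 to −0.01 for JAG1 (−0.01 without pre-miR-27a replicate 2), from 0.0070 to 0.14 for JAG2 (0.0070 without pre-miR-27a replicate 3), from −0.36 to −0.05 for NOTCH4 (−0.05 without pre-control replicate 2), from −0.067 to 0.14 for DLL1 (−0.067 without pre-miR-27a replicate 1) and from −0.061 to 0.060 for HEY1 (−0.0018 without pre-control replicate 2 and −0.061 without pre-miR-27a replicate 2). They ran from −0.045 to 0.29 for HEY2 (−0.0061 without pre-control replicate 2 and −0.045 without pre-miR-27a replicate 3), from −0.27 to 0.044 for HEYL (0.040 without pre-control replicate 1 and 0.044 without pre-miR-27a replicate 3) and from −0.64 to 0.038 for MFNG (0.038 without pre-control replicate 1). The cause was not tested. The replicate block changed the calls of DLL4, NCOR1 and DLK2 and no other call of a member or list gene.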
